A study of Rattus norvegicus with 32 samples.

Results

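The genes described here are 10 feedback inhibitors of the mitogen-activated protein kinase (MAPK) pathway in rat liver sinusoidal endothelial cells (LSECs): the phosphatases Dusp1, Dusp2, Dusp4, Dusp5 and Dusp6, the Sprouty genes Spry1, Spry2 and Spry4, and the Spred genes Spred1 and Spred2. The rule lists them by name and applies no measured value to them, and each was found once among the 32623 genes of the tables. RNA-seq was performed on 32 libraries of LSECs, each labelled as a separate sample. In the CCl4 experiment, 22 libraries came from male Wistar Han rats that were untreated (healthy, n = 6) or had inhaled carbon tetrachloride, a liver toxicant, for 2 weeks (acute injury, n = 5), 6 weeks (fibrosis, n = 5) or 12 to 14 weeks (cirrhosis, n = 6). Rats of the CCl4 model also drank phenobarbital, and the age of the rats is not given in the sources used here. The other 10 libraries (T) form a group labelled control (replicates 1 to 5) and a group labelled TAA control rat (replicates 10 and 12 to 15). Thioacetamide (TAA) is a second liver toxicant. The study states that LSECs of the CCl4 and TAA models were isolated several days after the last dose, to lessen acute inflammatory gene responses. The study describes healthy and TAA-cirrhotic Sprague-Dawley rats, whereas the labels read Wistar Han throughout and carry the word control in both T groups, so which of them received TAA was not settled here. T differences are given as TAA control rat minus control, with no stage attached.

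LSECs line the liver capillaries and carry receptor tyrosine kinases, such as the VEGF receptor Kdr, that signal through RAS, RAF, MEK and ERK. The genes studied here close that circuit. They are switched on by the pathway and then dampen it: dual-specificity phosphatases (DUSPs) strip phosphate from the MAP kinases themselves, while Sprouty and Spred proteins act upstream, between the receptor, RAS and RAF. DUSP1 acts on p38, JNK and ERK and its gene is an immediate early gene that also answers to stress and cell handling. DUSP6 is a cytoplasmic phosphatase selective for ERK, and its transcript is widely used as a readout of ERK activity.

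The members did not move as a block. In LSECs of acute injury, Dusp2, Spry2 and Spred1 were higher than in healthy LSECs, and Dusp1, Dusp5, Dusp6, Spry1, Spry4 and Spred2 were lower. Dusp1 fell 51.0-fold and Dusp2 rose 8.13-fold. In fibrosis Dusp2 rose 15.97-fold and Dusp1 fell 42.8-fold, and in cirrhosis Dusp1 was 3.33-fold below and Dusp2 2.25-fold above the healthy level. The Dusp2 call in cirrhosis and the Spry2 call in acute injury were each lost when certain single libraries were left out, as given below. Dusp6 and Spred2, both low in fibrosis, differed from healthy LSECs by less than their spread in cirrhosis. A gene was called where limma-voom gave an unadjusted p under 0.05 and a fold change over 1.5, the thresholds of the study, and p-values below are adjusted by the Benjamini-Hochberg method over all genes tested.

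In numbers, 3 of 10 members were called higher in acute injury, where 35.8% of the genes tested were, and 6 of 10 were called lower, where 38.3% were. In fibrosis 3 were called higher (35.8% of genes) and 4 lower (35.4% of genes). In cirrhosis 2 were called higher (28.8%) and 4 lower (25.7%). The median log2 fold change of the members was -0.89, -0.24 and -0.11 in the 3 stages, beside -0.09, -0.03 and 0.07 over all genes tested. With changes of this breadth across the transcriptome, nothing is read from these counts about the members as a set, and the description rests on the single genes. With library size alone as the scaling, the median over all genes moved to 0.32, 0.37 and 0.42, and the share of calls that were higher moved from 50.3% to 60.7% in fibrosis and from 52.8% to 71.2% in cirrhosis. The 3 stages were set against the same 6 healthy libraries. Dates or batches were not given in the labels, so stage and any batch cannot be told apart.

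**Figure D1:**
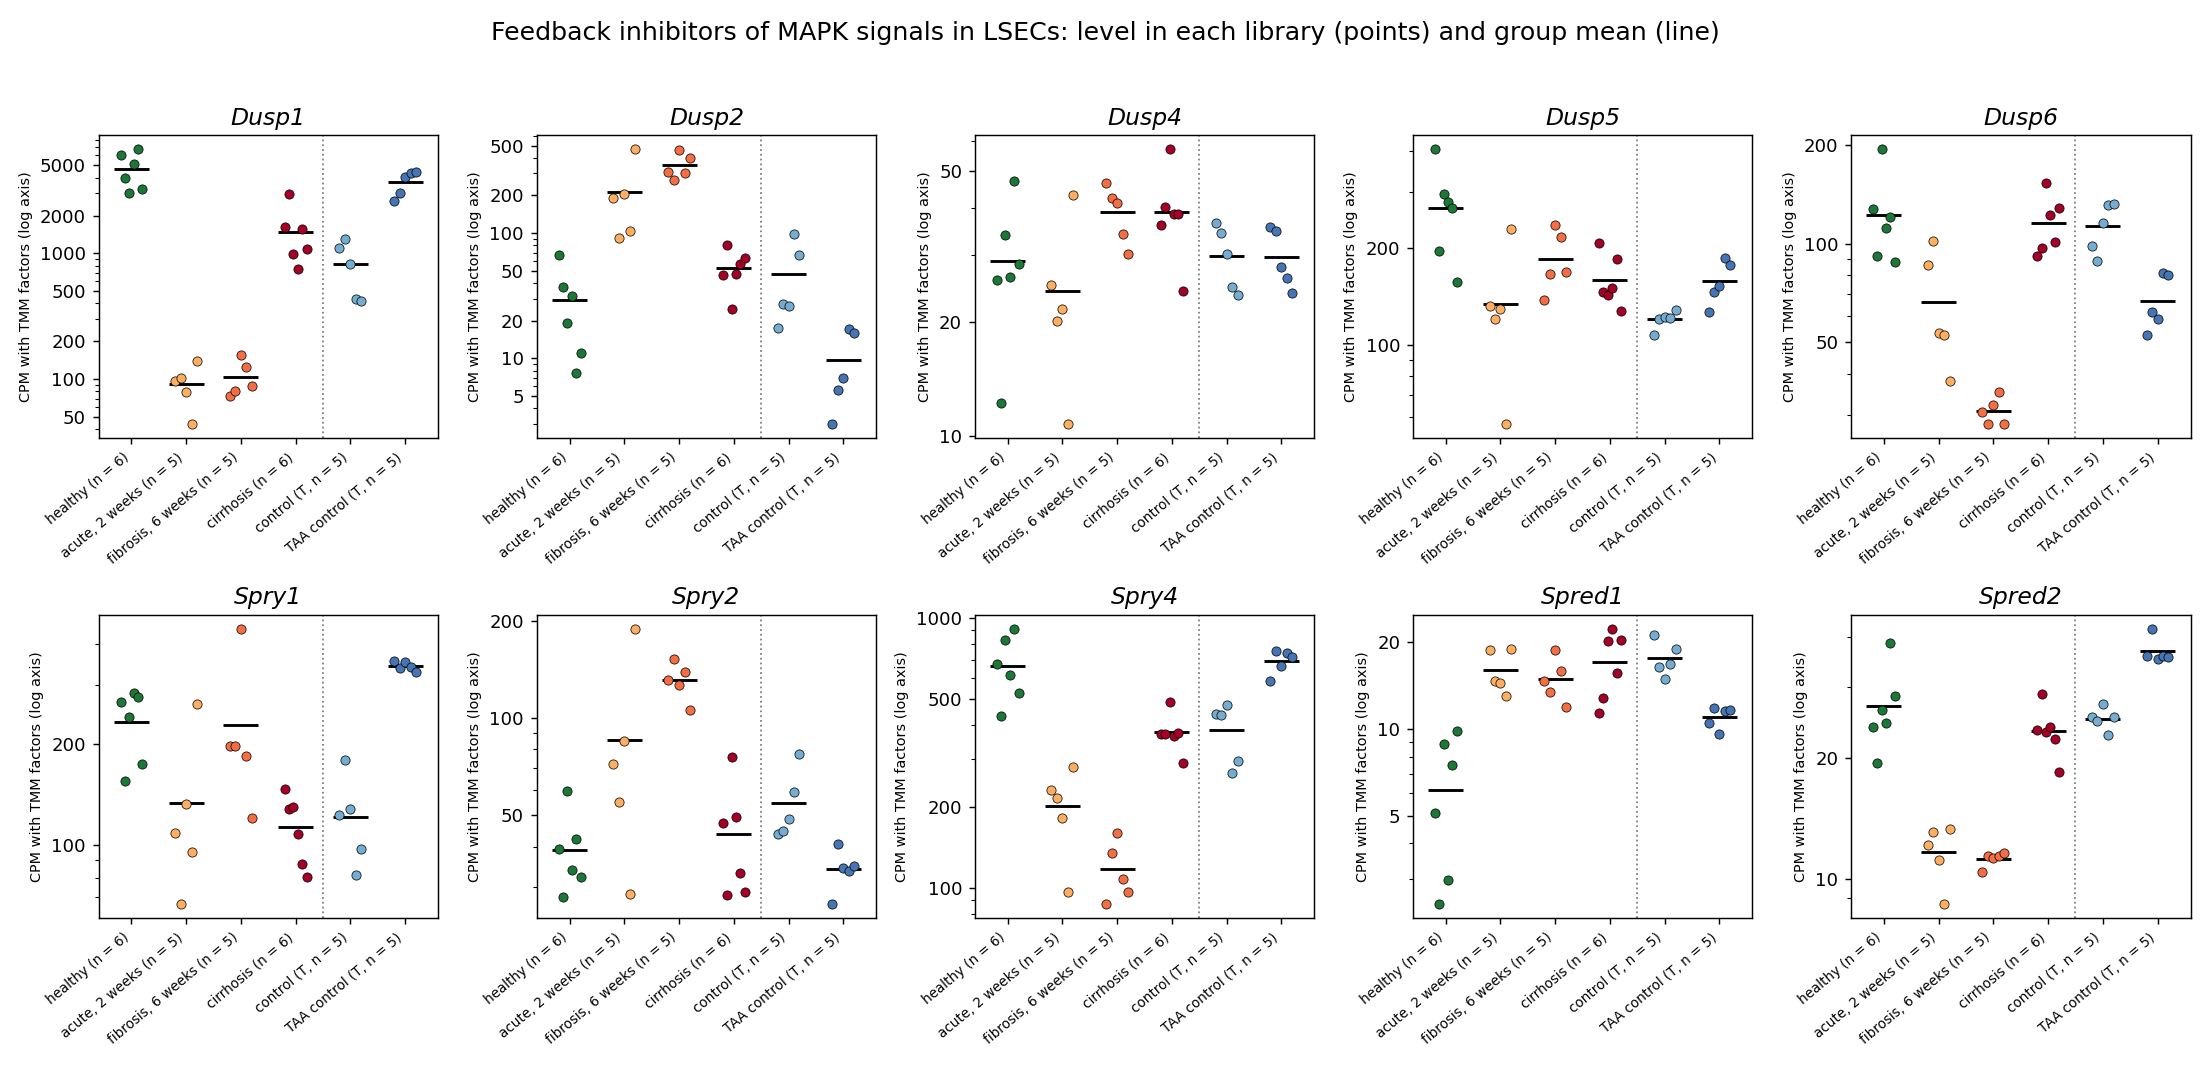
Level of each of the 10 genes in each library, as CPM (read counts scaled to library depth) with TMM factors on a log axis. Points are libraries and lines are group means, and the dotted line separates the CCl4 experiment from the T libraries, which were scaled separately. Dusp1 lies between 3041 and 6742 CPM in healthy LSECs and between 43.8 and 155 CPM in acute injury and fibrosis, and Dusp2 takes the opposite order.

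Dusp1 (ENSRNOG00000003977) showed the widest span of the 10 genes, 5.69 on the log2 scale between group means. Its level in healthy LSECs was 3041 CPM at the lowest, 4537 at the median and 6742 at the highest, equal to 0.216% to 0.546% of all counts of a library. In acute injury the 5 libraries held 97.2, 103, 78.4, 43.8 and 140 CPM. In fibrosis they held 73.3, 80.5, 155, 125 and 88.8 CPM. These 2 stages overlapped each other and stood far below every healthy library. In cirrhosis the lowest library had 749 CPM, the median was 1318 and the highest 2944, between the other stages and healthy LSECs and overlapping neither. The log2 fold change against healthy was -5.67 (SE 0.303, adjusted p = 1.28e-08) in acute injury, -5.42 (SE 0.262, adjusted p = 8.84e-09) in fibrosis and -1.73 (SE 0.317, adjusted p = 0.000737) in cirrhosis. Cirrhosis exceeded fibrosis by 3.74 (SE 0.307, adjusted p = 3.19e-07). Acute injury and fibrosis, neighbours in the order of levels, differed by 0.30 with a 95% interval of -0.39 to 0.99. LSECs were not sorted, and in such bulk libraries fewer cells of a type and less RNA per cell cannot be told apart.

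The promoters of Dusp1 and Dusp2, which had the widest spans in opposite directions, and of Dusp5 are shown as the 250 bases before the annotated start (RefSeq, build GRCr8, 9 of the 10 members matched; the counts were made on Rnor_6.0). Capitals mark letters of the cAMP response element TGACGTCA, its half-site TGACG or a CArG box, found on either strand. The CArG box, a site for serum response factor, was searched as CCWWWWWWGG, where W is A or T. A full element also counts as half-sites.
Dusp1: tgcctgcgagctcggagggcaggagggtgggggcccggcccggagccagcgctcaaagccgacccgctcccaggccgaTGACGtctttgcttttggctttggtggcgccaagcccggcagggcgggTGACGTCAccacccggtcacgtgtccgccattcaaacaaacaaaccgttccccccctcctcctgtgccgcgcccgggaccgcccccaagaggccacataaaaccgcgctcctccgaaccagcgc
Dusp2: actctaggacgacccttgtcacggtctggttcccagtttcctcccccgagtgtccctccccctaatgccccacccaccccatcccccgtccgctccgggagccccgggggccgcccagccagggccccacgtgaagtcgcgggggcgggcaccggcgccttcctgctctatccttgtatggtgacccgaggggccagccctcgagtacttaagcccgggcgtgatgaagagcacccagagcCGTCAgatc
Dusp5: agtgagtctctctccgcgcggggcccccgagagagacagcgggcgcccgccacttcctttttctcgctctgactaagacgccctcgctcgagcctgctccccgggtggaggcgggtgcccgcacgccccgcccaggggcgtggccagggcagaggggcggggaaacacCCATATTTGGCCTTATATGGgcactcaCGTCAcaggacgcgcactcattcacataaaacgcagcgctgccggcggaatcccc
The Dusp1 window (chr10:17184603-17184852, plus strand) held the full element 124 to 117 bases before the start and another half-site at 172 to 168. A full element stood in 1.59% of 33469 windows of this length and a half-site in 18.2%. The Dusp2 window (chr3:135009386-135009635, plus strand) held 1 half-site, at 9 to 5 bases before the start. The Dusp5 window (chr1:262543524-262543773, plus strand) held 2 adjacent CArG boxes, at 82 to 73 and 72 to 63, and 1 half-site. At least 1 CArG box stood in 1.5% of windows. Dusp5, with a narrower span (1.06 on the log2 scale), was the only member with a CArG box among the windows searched. Half-sites also stood in Spry2 and Spred2, and none of these letters were found in the Dusp6, Spry1, Spry4 and Spred1 windows. The AP-1 letters TGANTCA, in 6.34% of windows, were found in none of the 9 members searched. Dusp4 had no window and was not searched. A match is a description of letters, not evidence that a factor bound.

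Dusp2 (ENSRNOG00000013862), a nuclear phosphatase known from activated immune cells, took the reverse course. Healthy LSECs held 7.61 CPM at the lowest, 25.3 at the median and 67.4 at the highest. The acute libraries held 190, 91.7, 203, 104 and 468 CPM, all above the highest healthy library. Fibrosis libraries held 310, 265, 458, 303 and 400 CPM. Cirrhosis fell back to 24.8, 51.6 and 80.1 CPM (lowest, median and highest), below every acute library but overlapping healthy LSECs. Relative to healthy LSECs, Dusp2 changed by 3.02 on the log2 scale (SE 0.565, adjusted p = 0.000358) in acute injury and 3.997 (SE 0.467, adjusted p = 9.60e-06) in fibrosis. The change of 1.17 in cirrhosis (SE 0.475, adjusted p = 0.0480) was the least firm, since it missed the threshold with edgeR (0.86, adjusted p = 0.126) and DESeq2 (0.87, adjusted p = 0.0899), and also when cirrhosis replicate 2 or 6 or healthy replicate 5 or 6 was left out (0.84 to 1.10). Healthy replicates 5 and 6 held the lowest values, 7.61 and 11.1 CPM. Cirrhosis lay below fibrosis (-2.77, SE 0.266, adjusted p = 1.24e-06).

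Dusp5 (ENSRNOG00000014061), a nuclear phosphatase for ERK, lay between 157 and 407 CPM in healthy LSECs, between 56.9 and 230 in acute injury, between 139 and 237 in fibrosis and between 127 and 207 in cirrhosis. All neighbouring groups overlapped. It was lower in acute injury (-1.03, SE 0.328, adjusted p = 0.0121) and in cirrhosis (-0.69, SE 0.221, adjusted p = 0.0176). The fibrosis value of -0.42 (95% interval -0.95 to 0.11) was not called. Without healthy replicate 1, which held 407 CPM, the cirrhosis change was -0.55 and under the fold threshold, and with library size alone as the scaling it was -0.34 and not called.

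Dusp4 (ENSRNOG00000011921), an inducible nuclear phosphatase for ERK and JNK, was called in no stage against healthy LSECs. Its libraries ranged from 12.2 to 47.1 CPM in healthy LSECs, 10.8 to 43.3 in acute injury, 30.3 to 46.6 in fibrosis and 24.1 to 57.3 in cirrhosis. The log2 differences from healthy were -0.28 (95% interval -1.10 to 0.55), 0.58 (-0.03 to 1.20) and 0.51 (-0.12 to 1.13). With library size alone, the values for fibrosis and cirrhosis were 0.98 and 0.85 and were called. Fibrosis exceeded acute injury by 0.93 (SE 0.286, adjusted p = 0.0426). Cirrhosis exceeded acute injury by 0.83 (SE 0.296, adjusted p = 0.0210), which without acute replicate 4, the lowest of its group at 10.8 CPM, was 0.54 and not called.

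Dusp6 (ENSRNOG00000023896), the ERK-selective phosphatase, reached its lowest level in fibrosis. Healthy LSECs held 87.8, 116 and 194 CPM (lowest, median and highest). Acute libraries held 86.2, 102, 53.5, 52.5 and 37.98 CPM. Fibrosis libraries held 30.6, 28.2, 32.1, 35.3 and 28.1 CPM, a narrow band that did not overlap any other group. Cirrhosis held 91.6, 112 and 154 CPM and overlapped healthy LSECs. The log2 fold change against healthy was -0.88 (SE 0.266, adjusted p = 0.00874) in acute injury, -1.87 (SE 0.192, adjusted p = 3.23e-06) in fibrosis and -0.04 (95% interval -0.50 to 0.41) in cirrhosis. The acute value was -0.47 and not called with library size alone. Fibrosis lay below acute injury (-0.94, SE 0.251, adjusted p = 0.0258) and cirrhosis above fibrosis (1.89, SE 0.133, adjusted p = 8.44e-08).

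**Figure D2:**
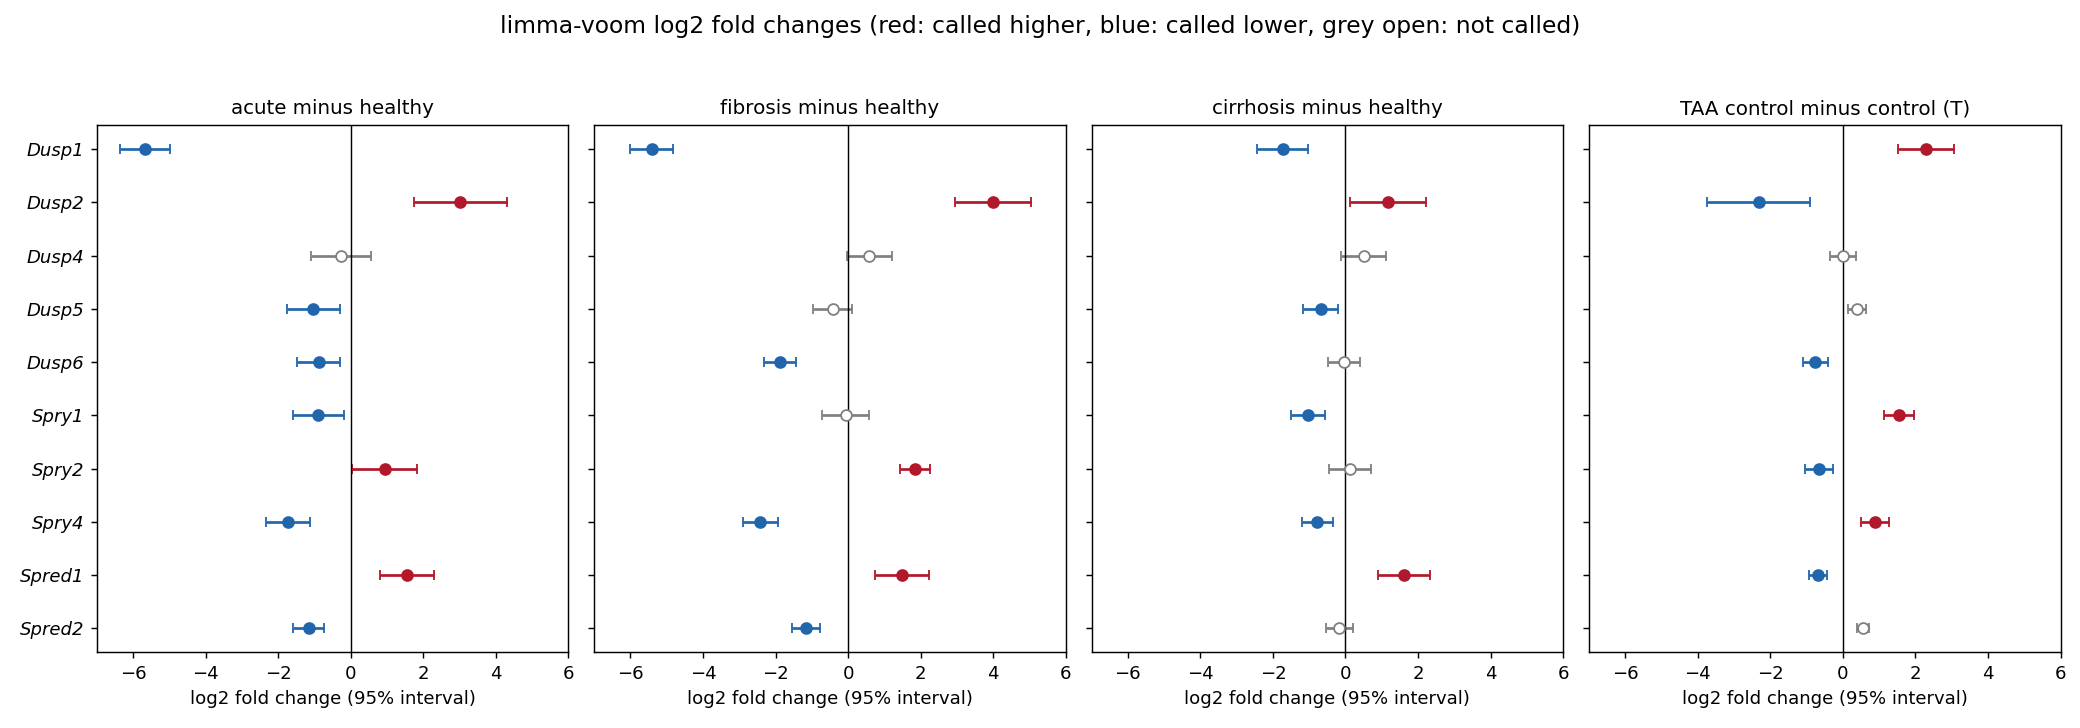
log2 fold change of each gene from limma-voom in 4 comparisons (x axis), with 95% intervals, and genes on the y axis. Red points were called higher, blue points lower, and grey open points were not called. Dusp1 lies at -5.67, -5.42 and -1.73 against healthy LSECs and at 2.29 in the T comparison, and Dusp2 lies on the other side of 0 in each panel.

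Of the Sprouty genes, which encode membrane-associated inhibitors of receptor tyrosine kinase signals, Spry4 (ENSRNOG00000013851) fell furthest. It held 435, 645 and 910 CPM in healthy LSECs (lowest, median and highest). Acute libraries held 231, 215, 181, 96.8 and 281 CPM. Fibrosis libraries held 87.2, 135, 160, 108 and 96.4 CPM. Cirrhosis lay between, with 290, 372 and 487 CPM, above both earlier stages and with its highest library inside the healthy range. The log2 fold change against healthy was -1.73 (SE 0.271, adjusted p = 8.89e-05) in acute injury, -2.43 (SE 0.214, adjusted p = 9.14e-07) in fibrosis and -0.78 (SE 0.191, adjusted p = 0.00410) in cirrhosis, the last of which fell under the fold threshold with library size alone (-0.44). Cirrhosis exceeded fibrosis by 1.70 (SE 0.167, adjusted p = 1.56e-06).

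Spry2 (ENSRNOG00000010058) moved the other way. Healthy LSECs held 28.02, 36.5 and 59.5 CPM (lowest, median and highest). The acute libraries held 72.0, 55.0, 84.7, 28.6 and 188 CPM and overlapped the healthy range. Fibrosis libraries held 131, 153, 127, 139 and 105 CPM, all above healthy LSECs. In cirrhosis the values were 28.4, 40.3 and 75.9 CPM and overlapped the healthy range. The rise was 1.84 on the log2 scale in fibrosis (SE 0.179, adjusted p = 2.05e-06) and 0.93 in acute injury (SE 0.391, adjusted p = 0.0444). The acute call was lost without acute replicate 1, 3 or 8 (0.59 without replicate 8, which held 188 CPM). In cirrhosis the difference was 0.13 (95% interval -0.45 to 0.70), and cirrhosis lay below fibrosis (-1.66, SE 0.234, adjusted p = 3.58e-05).

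Spry1 (ENSRNOG00000025371) was lower in cirrhosis than in healthy LSECs. Healthy LSECs held 156, 255 and 284 CPM (lowest, median and highest) and cirrhosis 80.0, 118 and 147 CPM, with no overlap. Acute libraries held 108, 66.7, 133, 95.3 and 265 CPM. Fibrosis libraries held 198, 198, 442, 185 and 121 CPM, of which replicate 15 was the highest of all 22 libraries. The log2 fold change against healthy was -1.03 in cirrhosis (SE 0.207, adjusted p = 0.00131) and -0.90 in acute injury (SE 0.311, adjusted p = 0.0188), the latter -0.49 and not called with library size alone. In fibrosis it was -0.07 (95% interval -0.72 to 0.59). Cirrhosis lay below fibrosis by a log2 difference of -0.91 (SE 0.279, adjusted p = 0.00980), while its difference from acute injury, -0.11, had a 95% interval of -0.79 to 0.57.

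The 2 Spred genes, whose proteins bind RAF and the RAS regulator neurofibromin, went in opposite directions. Spred1 (ENSRNOG00000005209) held 2.46, 6.31 and 9.87 CPM in healthy LSECs (lowest, median and highest). Acute libraries held 18.9, 14.7, 14.5, 13.01 and 18.9 CPM, fibrosis libraries 14.7, 13.5, 18.8, 15.9 and 11.9 CPM, and cirrhosis 11.4, 17.9 and 22.3 CPM. All 16 libraries of the CCl4 stages stood above all 6 healthy ones, and the stages overlapped each other. The rise was 1.56 (SE 0.327, adjusted p = 0.000846), 1.49 (SE 0.327, adjusted p = 0.00130) and 1.61 (SE 0.322, adjusted p = 0.00129) on the log2 scale, and no difference between stages was called (intervals from -0.36 to 0.61).

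Spred2 (ENSRNOG00000004888) held 19.5, 25.4 and 38.5 CPM in healthy LSECs. It held 12.1, 13.1, 11.1, 8.68 and 13.3 CPM in the acute libraries and 10.4, 11.4, 11.3, 11.4 and 11.6 CPM in the fibrosis libraries. Both stages lay below every healthy library. Cirrhosis returned to 18.4, 23.4 and 28.8 CPM. The log2 fold change was -1.16 in acute injury (SE 0.193, adjusted p = 0.000140) and -1.16 in fibrosis (SE 0.169, adjusted p = 5.76e-05), and -0.17 in cirrhosis (95% interval -0.54 to 0.20). Cirrhosis exceeded fibrosis by 1.05 (SE 0.114, adjusted p = 3.73e-06) and acute injury by 1.03 (SE 0.149, adjusted p = 3.39e-05).

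Groups that did not overlap at all numbered 5 of 10 members in acute injury against healthy LSECs, where the same held for 60% of the genes tested. In fibrosis it was 7 of 10 (58.7% of genes) and in cirrhosis 3 of 10 (27.2% of genes), namely Dusp1, Spry1 and Spred1. Between fibrosis and acute injury 4 members were called higher (14.3% of genes) and 2 lower (1.39% of genes), and only Dusp6 did not overlap (17.2% of genes). Of those 6 calls, Dusp4 and Dusp6 also passed with adjusted p-values, as 11% of genes did. The other 4, Dusp2, Spry1, Spry2 and Spry4, had adjusted p-values of 0.0849 to 0.132. Between cirrhosis and fibrosis 4 were called higher (34.5% of genes), 3 lower (29.7%) and 6 did not overlap (63.3%). Cirrhosis against acute injury gave 5 higher (37.8%), 1 lower (31.9%) and 4 that did not overlap (65.9%).

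In the T libraries 8 of the 10 genes had no overlap between the 2 groups, as held for 35.4% of the genes tested. Dusp1 held 1108, 1312, 830, 433 and 420 CPM in the group labelled control and 2617, 2998, 4072, 4392 and 4434 CPM in the group labelled TAA control rat. The second group was higher in every library, by 2.29 on the log2 scale (SE 0.340, adjusted p = 0.000366). Dusp2 held 17.5, 27.1, 26.4, 98.3 and 67.0 CPM in control and 2.99, 5.64, 7.01, 17.1 and 15.9 CPM in TAA control rat, again with no overlap (-2.32, SE 0.615, adjusted p = 0.00939). Replicates 4 and 5 of control, the lowest for Dusp1, were the highest for Dusp2.

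Spry1 held 123, 179, 128, 81.2 and 97.7 CPM in control and a tight 355, 339, 353, 342 and 329 CPM in TAA control rat (1.55, SE 0.179, adjusted p = 9.13e-05). Spry4 was also higher in TAA control rat, with 584 to 753 CPM beside 267 to 478 CPM (0.88, SE 0.168, adjusted p = 0.00154). Dusp6 was lower, with 52.5 to 81.2 CPM beside 88.6 to 132 CPM (-0.76, SE 0.151, adjusted p = 0.00197). Spred1 was lower too, with 9.64 to 11.9 CPM beside 14.9 to 21.3 CPM (-0.68, SE 0.111, adjusted p = 0.000615). Spry2 was lower by a log2 difference of -0.66 (SE 0.164, adjusted p = 0.00651), which fell under the fold threshold without control replicate 5 (-0.53) or TAA control rat replicate 10 (-0.57).

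Spred2 did not overlap either, with 35.1 to 41.8 CPM in TAA control rat and 22.8 to 27.2 CPM in control, yet its change of 0.56 (SE 0.0715, adjusted p = 0.000168) stayed under the fold threshold. Dusp5 changed by 0.39 (SE 0.104, adjusted p = 0.0103), under the same threshold. Dusp4 did not separate the groups, with a difference of 0.00 and a 95% interval of -0.35 to 0.35. In all, 3 members were called higher (13.5% of genes), 4 lower (15.9% of genes) and the 8 without overlap compare with 35.4% of genes.

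The genes most like each of the 3 members with the widest spans were found over the 22 libraries of the CCl4 experiment, as the smallest root mean square difference of centred log2 CPM among 13288 genes. For Dusp1 they were Ier2 (0.357), an immediate early gene, Gpr182 (0.465), a receptor enriched in sinusoidal endothelium, and Sectm1a (0.475), beside a median gene at 2.47. For Dusp2 they were Slc2a1 (0.584), the glucose transporter GLUT1, Fhl2 (0.603) and F3 (0.726), tissue factor, with the median gene at 1.80. For Spry4 they were Iqsec2 (0.348), Rassf1 (0.351) and Cmtm8 (0.361), with the median gene at 1.16. The values share libraries and depth, and likeness is a description.

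Around the members, other inhibitors of the circuit also split. Genes named here and in the next 2 paragraphs as the largest changes of a list are those with a mean log2 CPM of 1 or more over both groups. Of 9 further DUSP, SPRY and SPRED genes tested in acute injury, 2 were called higher and 3 lower, with Dusp7 (1.05) and Dusp14 (-4.57) at the ends on the log2 scale above that level. In fibrosis 3 of 9 were higher and 2 lower, with Dusp10 (0.98), a phosphatase for JNK and p38, and Dusp14 (-3.88) at the ends. Dusp9, below that level, was called higher in both stages by more than Dusp7 or Dusp10. The Dusp9 mean went from 0.0948 CPM in healthy LSECs to 5.68 in acute injury and 6.496 in fibrosis. The size of this fold rests on few reads in healthy LSECs. In cirrhosis Dusp16 (0.59) was the only call of 8, and in the T comparison Dusp8 (0.90) and Dusp14 (-1.36) led 2 higher and 2 lower calls of 8. Of 8 other inhibitors of receptor signals, 4 were higher and 3 lower in both acute injury and fibrosis. Nf1 (1.81 in acute injury), which encodes the RAS-inactivating neurofibromin, and Lrig1 (1.86 in fibrosis), which promotes receptor turnover, rose furthest, and Socs3, a cytokine-signal inhibitor, fell furthest (-5.80 and -5.53). In cirrhosis 2 rose, led by the RAS GTPase-activating Rasa1 (1.69), and 2 fell, led by the RAF inhibitor Pebp1 (-1.74). In the T comparison none of 7 was higher and 2 were lower, led by Errfi1 (-1.12), an inhibitor of EGF receptors.

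The kinases themselves were called in both directions. Of 16 genes of the RAS-ERK cascade, 8 were higher and 7 lower in acute injury, with the exchange factor Sos2 (1.99) and the scaffold Ksr1 (-3.10) at the ends, and 8 and 7 in fibrosis, with the MEK gene Map2k1 (1.94) and Ksr1 (-3.03). Cirrhosis gave 5 higher and 6 lower, of which Map2k2 (-1.50) fell furthest. In the T comparison Ksr1 (0.71) was the only call of 16. Of 11 genes of the JNK, p38 and ERK5 cascades, 5 were higher and 5 lower in acute injury, 4 and 5 in fibrosis, and 2 and 7 in cirrhosis. Map2k4, a kinase upstream of JNK, rose by 2.09 in acute injury and 2.12 in fibrosis. Map2k6, a p38 kinase kinase, fell to -3.55 in acute injury and the p38 gene Mapk11 to -3.73 in fibrosis. The ends in cirrhosis were Mapk8 (1.05) and Map2k3 (-1.69), and Map2k3 (-2.24) was the single call in the T comparison.

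Receptors and targets at either side of the cascade were mostly lower in acute injury. Of 19 receptor tyrosine kinases 4 were higher and 13 lower, with the HGF receptor Met (3.78) and the VEGF receptor Kdr (-3.96) at the ends. Fibrosis gave 4 higher and 8 lower, with Met (3.64) and Kdr (-3.59) again at the ends, and cirrhosis 5 higher and 3 lower, with Pdgfra (2.96), a gene of mesenchymal cells, and Ephb4 (-1.52). The T comparison gave 3 higher, led by Kit (1.16), and 8 lower, led by the pericyte and stellate cell gene Pdgfrb (-5.09). Of the ERK target genes, 3 of 12 were higher and 7 lower in acute injury and 2 of 11 and 7 in fibrosis. Myc rose (2.47 and 2.64) and Egr1 fell (-6.06 and -6.09) in those stages. Cirrhosis gave 4 higher, led by Etv1 (2.24), and 4 lower of 12, led by Epha2 (-1.40). In the T comparison 3 were higher, led by Egr1 (2.09), and 5 lower of 12, among them Myc (-2.37).

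**Figure D3:**
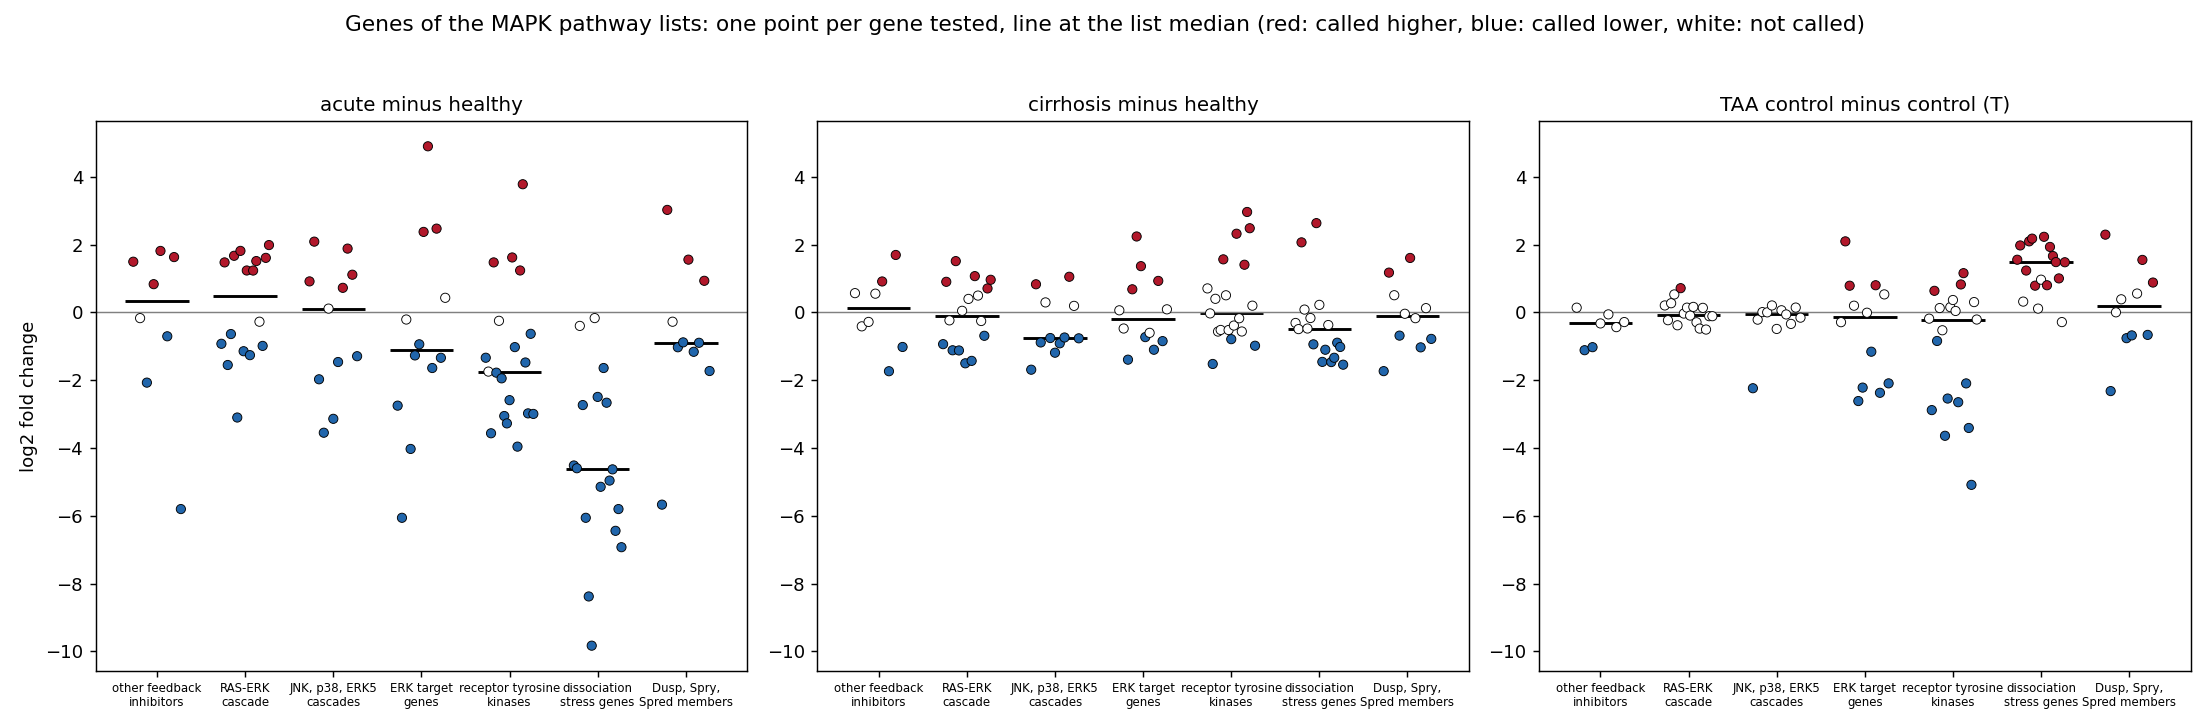
log2 fold changes (y axis) of the genes of 6 pathway lists and of the 10 members (x axis) in acute injury and cirrhosis against healthy LSECs and in the T comparison. Each point is a gene tested, red if called higher, blue if called lower and white if not called, and lines are list medians. The dissociation stress genes stand at a median of -4.63 in acute injury, -0.49 in cirrhosis and 1.48 in the T comparison.

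Most genes known to respond to tissue dissociation, such as Fos and Jun, were also lower in acute injury and fibrosis. Of 17 tested, none was higher and 15 were lower in acute injury, none and 14 in fibrosis, 2 and 8 in cirrhosis, and in the T comparison 13 were higher and none lower. Fos stood at -8.38 and -7.06 in acute injury and fibrosis, the heat shock gene Hspa1b at -2.49 and -0.01, the latter not called, and Dnaja1 and Hsp90aa1 were called in neither but rose in cirrhosis (2.07 and 2.63). The summed level of the list was 49065 to 82521 CPM in healthy LSECs, 2060 to 6093 in acute injury, 5146 to 7885 in fibrosis and 27093 to 50046 in cirrhosis. In the T libraries it was 17208 to 34586 CPM in control, with replicates 4 and 5 lowest, and 51362 to 72956 CPM in TAA control rat. Egr1, Ier3 and Socs3 stand both in this list and in a pathway list above. Whether the RNA was taken before or after culture is not given in the sources used here. The part of cell handling in the levels of Dusp1 or any other member was not tested.

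Markers of LSEC identity moved as well. Of 13 measured, 11 were lower in acute injury and 12 in fibrosis, with none higher, and the summed level was 20071 to 35846 CPM in healthy LSECs, 4608 to 5372 in acute injury, 3232 to 4321 in fibrosis and 18166 to 23069 in cirrhosis. In cirrhosis 1 was higher and 5 lower, and in the T comparison 4 were higher and none lower (25059 to 31195 CPM in control and 29772 to 38597 CPM in TAA control rat). No LSEC marker was at 0 in any group. Kdr, Tek and Tie1 stand both among these markers and in the list of receptor tyrosine kinases above. Stab2, a scavenger receptor of LSECs, averaged 3482 CPM ± 1304 (SD, n = 6) in healthy LSECs, 148 ± 71.7 (SD, n = 5) in acute injury, 180 ± 55.5 (SD, n = 5) in fibrosis and 3294 ± 552 (SD, n = 6) in cirrhosis. The endothelial cadherin gene Cdh5 averaged 1293 ± 430, 1597 ± 336, 1040 ± 123 and 1506 ± 180 CPM in the same groups. The fall was uneven among the markers: Lyve1 was not called in acute injury (-0.49), and Tek stood at -0.63 there.

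**Figure D4:**
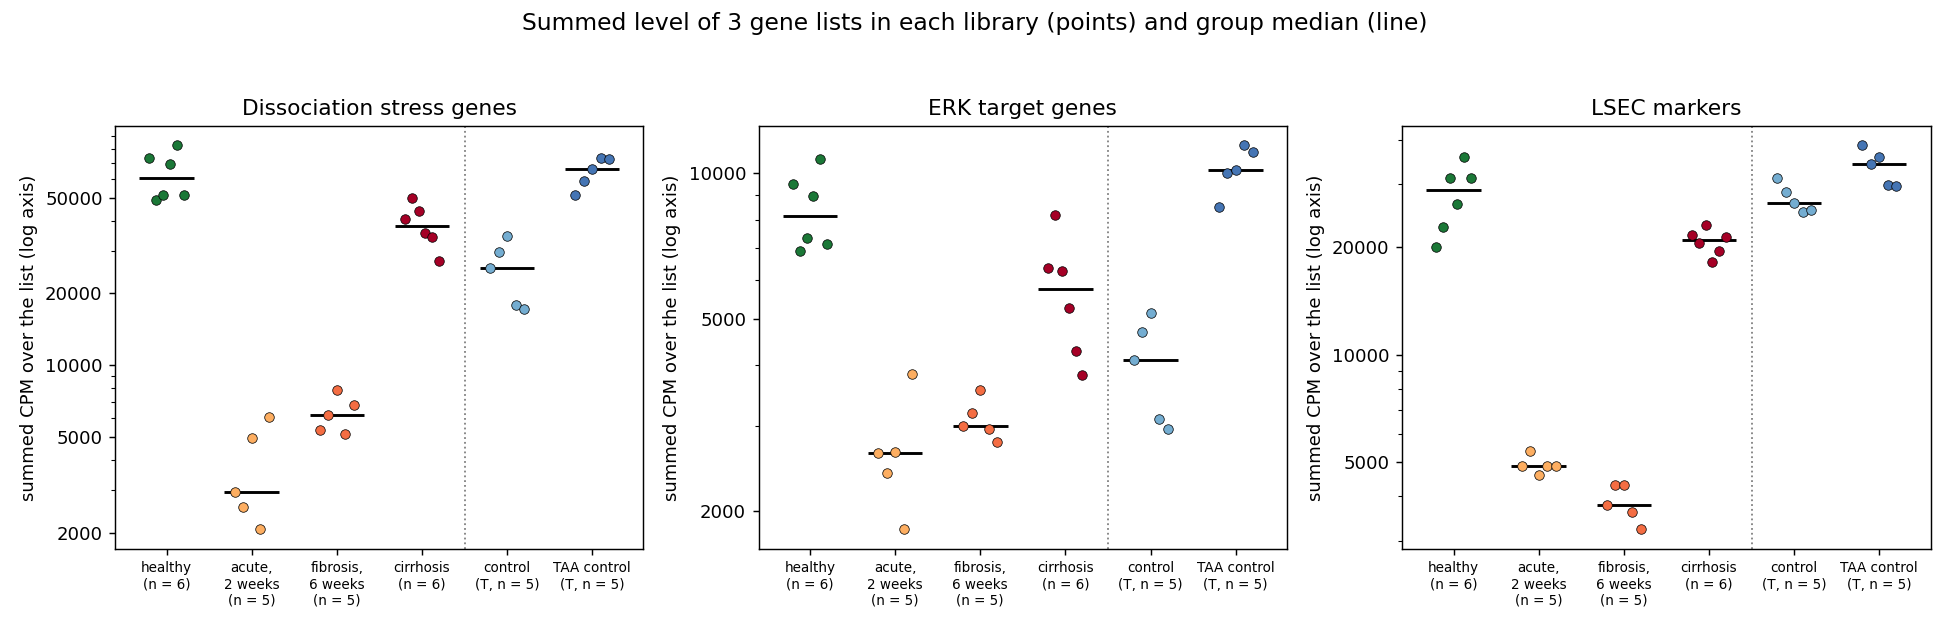
Summed CPM of 3 gene lists in each library, on log axes, by group. Points are libraries and lines are group medians. Dissociation stress genes and LSEC markers are low in all 10 libraries of acute injury and fibrosis and high in healthy LSECs.

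Markers of other cell types stood at levels that differed between groups. Hepatocyte markers summed to 1363 to 29276 CPM in healthy LSECs, 151 to 948 in acute injury, 1402 to 5550 in fibrosis and 3160 to 15090 in cirrhosis, with 10, 6 and 3 of 10 lower and none higher in the 3 stages. Macrophage markers summed to 612 to 4686 CPM in healthy LSECs, 97.6 to 260 in acute injury, 42.4 to 254 in fibrosis and 1329 to 3805 in cirrhosis, with 11 of 11 lower in both earlier stages and 2 of 12 higher in cirrhosis. Timd4, a Kupffer cell gene, was at 0 in acute injury and fibrosis. Stellate cell and fibroblast markers were lower for 7 of 10 and higher for 1 in acute injury, 4 and 4 in fibrosis, and higher for 8 of 11 and lower for 1 in cirrhosis, with summed levels of 925 to 1522, 1315 to 2133, 1303 to 1749 and 784 to 2073 CPM in healthy LSECs and the 3 stages. Single genes made up most of those sums: Reln averaged 167 CPM in healthy LSECs, 1678 in acute injury and 1377 in fibrosis, and Islr averaged 816, 1.55 and 3.10 CPM, so the sums do not follow the list as a whole. Pdgfrb stands both in this list and among the receptor tyrosine kinases. Lymphocyte markers summed to 55.2 to 420 CPM in healthy LSECs, 7.61 to 19.6 in acute injury, 9.59 to 60.1 in fibrosis and 102 to 235 in cirrhosis, with 9, 6 and 3 of 9, 9 and 11 lower and 0, 0 and 2 higher.

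Neutrophil markers had 1 of 2 lower in acute injury and in fibrosis and 3 of 5 higher and 2 lower in cirrhosis, with sums of 10.5 to 207, 27.2 to 180, 30.4 to 132 and 8.28 to 28.5 CPM and medians of 32.6, 53.4, 66.8 and 19.9 CPM in healthy LSECs and the 3 stages. Cholangiocyte markers summed to 12.2 to 202, 44.8 to 171, 169 to 379 and 76.6 to 135 CPM, with 1 of 6 higher and 4 lower in acute injury, 2 and 2 in fibrosis, and 4 of 8 higher in cirrhosis. In the T libraries, stellate markers summed to 2186 to 5377 CPM in control and 533 to 787 in TAA control rat (1 higher and 8 lower of 11), and hepatocyte markers to 2311 to 5732 and 674 to 1520 CPM (7 of 10 lower). Macrophage markers (4 of 11 higher), lymphocyte markers (5 of 6 higher), neutrophil markers (2 of 2 higher) and cholangiocyte markers (7 of 7 lower) also differed there. The part of these cells in the members' values was not tested.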

How the data were processed

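LSECs were isolated by perfusion, digestion and an iodixanol gradient, without a sort, and polyA RNA was sequenced. The authors deposited expected counts per gene from RSEM, not normalized, after STAR alignment to Rnor_6.0 (per the labels, which also list FastQC, Trim Galore and limma). Expected counts that were not whole made up 10.3% to 12.36% of values per library and were rounded. Totals ranged from 25646531 to 46464289 per library, and intervals for group differences rest on the spread between libraries. The study describes the samples as independent LSEC isolations.

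Groups were taken from the labels. In the TAA control rat group the sample titles (10, 12 to 15) and descriptions number 4 libraries differently, and the titles were used. The members were picked for description, and the lists and tests chosen, with earlier results of these data known. Each pair of groups was fitted on its own with limma 3.58.1 (voom) and edgeR 4.0.16 (TMM factors, filterByExpr) in R 4.3.3, over 13931 to 15186 genes. A call needed an unadjusted p under 0.05 and a fold change over 1.5. The 95% intervals used the SE from limma with the t distribution on the number of libraries minus 2. They are wider than intervals that match the p-values would be. CPM used TMM factors set over the 22 libraries of the CCl4 experiment and the 10 T libraries separately, with a pseudocount of 0.5 for log2 CPM. Named genes were the 10 members, the called gene with the largest rise and fall of each pathway list (genes under a mean log2 CPM of 1 were passed over), and the 3 genes most like each of the 3 members with the widest span. One gene that this rule names is not reported here. Dusp9, Stab2, Cdh5, Lyve1, Tek, Reln, Islr, Timd4, Fos, Jun, Hspa1b, Dnaja1 and Hsp90aa1 were named after their values were seen. Of the listed symbols, Pecam1 and Col1a2 were not matched and Grb2 and Hspa8 matched more than 1 gene, and these 4 were not used here. Promoter windows were searched with Python 3.11.15 and figures drawn with matplotlib 3.10.9. Scripts were tested on simulated data. Alternatives were edgeR's quasi-likelihood test, DESeq2 1.42.0, adjusted p-values, no fold threshold, 1 fit over 4 groups, library weights, 2 other filters, 2 other scalings, a replicate block and leaving out each library. Alternatives for the gene lists and the levels were added after the data were seen.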

Additional observations from a re-analysis of the deposited data

Results flagged for a closer look

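In 2 of 60 combinations of gene and group, 1 library stood apart from the rest, where chance gives about 1 in 20, or 3. Spred2 in fibrosis replicate 12 was at 10.4 CPM, below the 4 others. Spred2 in TAA control rat replicate 12 was at 41.8 CPM, above the 4 others.

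The change against healthy LSECs differed between stages, by the test of 1 stage against another with adjusted p-values, for 8 members. Over all genes tested, 11% met this rule between fibrosis and acute injury. With unadjusted p-values, 34.5% of genes were called higher and 29.7% lower between cirrhosis and fibrosis. Between cirrhosis and acute injury the shares were 37.8% and 31.9%, so nothing is read from the count of members. Cirrhosis differed from fibrosis by a log2 difference of 3.74 for Dusp1, -2.77 for Dusp2, 1.89 for Dusp6, -0.91 for Spry1, -1.66 for Spry2, 1.70 for Spry4 and 1.05 for Spred2. Cirrhosis differed from acute injury by 3.96 for Dusp1, -1.82 for Dusp2, 0.83 for Dusp4, 0.87 for Dusp6, 0.97 for Spry4 and 1.03 for Spred2. Fibrosis differed from acute injury by 0.93 for Dusp4 and -0.94 for Dusp6. The Dusp4 difference between cirrhosis and acute injury was 0.54 and not called without acute replicate 4. Dusp5 and Spred1 met this rule in no pair of stages.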

How the results depend on the processing

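Outside the fits that leave out a library, 606 of the members' values kept their direction and their side of the threshold, 17 lost the call, 14 gained it and 23 changed sign, none of which was called in the report. For fibrosis against acute injury, 6 members were called, but 2 with adjusted p-values and 3 with edgeR, and 2 to 6 when a library was left out (2 without acute replicate 2, and 3 without acute replicate 4 or fibrosis replicate 16). In the other comparisons, leaving out a library gave 8 to 9, 7 to 8, 5 to 6, 7 to 7, 6 to 7 and 6 to 7 calls in the order acute injury, fibrosis and cirrhosis against healthy LSECs, cirrhosis against fibrosis and acute injury, and T. Over the 91 genes of the other pathway and stress lists, calls without the fold threshold rose from 24 to 47 in fibrosis against acute injury and from 38 to 59 in T. With library size alone, 2 of 60 group levels moved by over 1 SD (Dusp6 and Spred2 in fibrosis).

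With library size alone, the sign changed for Dusp4 in acute injury (0.14), Spry1 in fibrosis (0.33), Dusp6 (0.30) and Spred2 (0.17) in cirrhosis, Spred2 in fibrosis against acute injury (-0.0173), Spred1 in cirrhosis against acute injury (-0.0199) and Dusp4 in T (-0.0352). With edgeR it changed for Spry1 in fibrosis (0.0372) and Dusp4 in cirrhosis against fibrosis (0.0033) and T (-0.0093), and with DESeq2 for the same 3 (0.0646, 0.03 and -0.0276). With DESeq2's size factors Dusp4 was at 0.0046 and -0.016 in these 2 comparisons, and with no filter at 0.0026 in the first. The stricter CPM filter gave 0.0575 for Dusp6 in cirrhosis, 0.0105 for Spred1 in fibrosis against acute injury and -0.0098 for Dusp4 in T. Library weights gave -0.0082 for Spred2 in fibrosis against acute injury and 0.0682 for Spry1 in cirrhosis against acute injury, and 1 fit over 4 groups gave -0.0324 for that Spred2 value. Causes were not tested. Leaving out a library changed the sign only of values that were not called, over these ranges: Dusp4 from -0.51 to 0.0102 in acute injury, -0.13 to 0.11 in cirrhosis against fibrosis and -0.0841 to 0.0805 in T, Dusp6 from -0.14 to 0.10 and Spry2 from -0.0517 to 0.25 in cirrhosis, Spry1 from -0.33 to 0.14 in fibrosis and -0.33 to 0.17 in cirrhosis against acute injury, and Spred1 from -0.0948 to 0.0685 and Spred2 from -0.0633 to 0.0987 in fibrosis against acute injury.

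For same-numbered libraries of different groups, the correlations of their deviations ranged from -0.242 to 0.29. Differently numbered libraries were not compared, so these values cannot show whether same-numbered libraries were paired. With the replicate block, 9 members were called in acute injury, 6 in cirrhosis and 7 in cirrhosis against acute injury (6 without), where Dusp5 reached 0.68 and Spry1 0.44 (adjusted p = 0.0572). The block fits kept only libraries whose number occurred in both groups, so those with acute injury also left out libraries. Without acute replicate 8 and with no block, Dusp5 was at 0.59 and called in cirrhosis against acute injury. TAA control rat replicates 14 and 15 differed less than any other pair (chi-square per degree of freedom 3.05, beside at least 25.2 in the other groups), though by more than sampling noise, and with these 2 averaged 7 members were called. The lowest levels were those of Spred1 in healthy LSECs (from 2.46 CPM) and Dusp2 in TAA control rat (from 2.99 CPM). They rest on 72 to 382 and 88 to 433 counts per library.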
